A study of Homo sapiens with 9 samples.

Results

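A set of 10 genes was followed through an experiment on the translation inhibitor PDCD4 in 22Rv1 cells, an established human prostate carcinoma line of epithelial type. They are PDCD4 itself and genes of the cap-binding machinery on which it acts, or of the same gene families. These are EIF4A1, EIF4A2, EIF4A3, EIF4G1, EIF4G2, EIF4G3, EIF4B, EIF4H and EIF4E. All 10 were taken by their gene symbol from the 60623 genes of the deposited tables, and all 10 passed a filter on low counts that left 16213 genes for testing. PDCD4 had been depleted with a short hairpin RNA in every cell sequenced, controls included, and 1 of 3 forms was then put back. The forms were the wild type (WT), S239A, with alanine in place of a serine, and S239D, with aspartate there. Each had 3 libraries of poly(A)-selected RNA. The study addressed phosphorylation of PDCD4 by the kinase PLK1 and resistance to the prostate cancer drug enzalutamide. Untreated parental cells, and cells left without a rescue form, were not analysed here. Nothing in the labels says that libraries of a form came from separate cultures or lines. The p-values therefore rest on the variation among these libraries, part or all of which may be technical.

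Most cellular messenger RNAs are translated after the complex eIF4F assembles on their cap. EIF4E binds the cap, the EIF4G proteins form a scaffold, and EIF4A is the RNA helicase that opens structure ahead of the ribosome, helped by the cofactors EIF4B and EIF4H. PDCD4 binds EIF4A, keeps it from the scaffold and blocks its helicase activity, and the kinases of the AKT and S6 kinase pathways mark PDCD4 protein for degradation. RNA levels, given here, are separate from the amount, phosphorylation or binding of these proteins.

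The position that was changed lies in exon 6 of 12 of the PDCD4 transcript of 469 codons (PDCD4-201 in GENCODE 29, GRCh38). The reference sequence of the cells' own gene around it is shown to place the substitution, with the codon of the changed serine in capitals, at chr10:110887794-110887856 on the plus strand.
PDCD4 changed codon: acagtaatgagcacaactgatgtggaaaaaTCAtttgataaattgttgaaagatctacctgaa
The capitals, TCA, are a serine codon at chr10:110887824-110887826. In a shorter reading frame of the same gene, PDCD4-202 with 458 codons, the codon of that number is TTA, which does not code for serine, so the names of the variants follow the longer frame. Counts per gene do not tell reads of the introduced copy from reads of the cells' own gene, so PDCD4 levels hold both.

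Libraries held 5696841 to 9688554 counts. Replicate 2 of S239A and replicate 2 of S239D stood apart within their groups. The chi-square per degree of freedom between replicates was 9.22 to 15.9 for pairs that held 1 of them and 1.9 to 2.49 for the other pairs. The share of mitochondrial counts was 2.83 to 3.04% in WT, 2.99 to 5.38% in S239A and 4.72 to 6.01% in S239D, highest in those 2 libraries. All 10 markers of luminal prostate cells, such as KLK3 and KRT8, were detected in every library. Their summed level was 5160 to 5280 CPM (counts scaled to library size) in WT, 5350 to 5930 in S239A and 3920 to 4290 in S239D. Markers of fibroblasts, immune, endothelial and basal cells (12 genes) summed to 33.4 to 38.6, 37.2 to 47.4 and 29 to 38.1 CPM in the same order, most of it COL1A1. CD3E was at 0 in every library, and PTPRC, PECAM1 and KRT5 had group means of at most 0.26 CPM. The part of these differences in the results that follow was not tested. In bulk RNA fewer cells of a kind and less RNA per cell cannot be told apart.

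The 10 genes differed widely in level. In TPM, a measure of abundance per transcript length scaled within each library, WT cells ran from EIF4A1 at 974 ± 22 TPM, the highest, to PDCD4 at 15 ± 2.9 TPM, the lowest (SD, n = 3). EIF4B followed EIF4A1 at 681 ± 34 TPM, and EIF4H (333 ± 4.5 TPM), EIF4G2 (307 ± 3.3 TPM) and EIF4A2 (288 ± 19 TPM) lay close together without overlap between their libraries. EIF4G1 (215 ± 6.6 TPM) and EIF4A3 (202 ± 8.6 TPM) overlapped. EIF4E stood at 92.7 ± 9.7 TPM and EIF4G3 at 41.2 ± 3.8 TPM. PDCD4 was above 51.2% of the tested genes in WT by TPM, whereas each of the other 9 was above 76.4 to 99.1% of them.

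In S239A the order of the 10 means was the same as in WT, and the libraries of EIF4H, EIF4G2, EIF4A2, EIF4G1 and EIF4A3 overlapped from each to the next. In S239D the scaffold genes EIF4G2 and EIF4G1 stood higher in the order, while EIF4G3 kept its place just above PDCD4. EIF4G2 came next after EIF4B at 444 ± 81 TPM, followed by EIF4G1 at 345 ± 9.4 TPM, above EIF4A2 (342 ± 42 TPM) and EIF4H (328 ± 20 TPM), although EIF4G1, EIF4A2 and EIF4H overlapped in turn (SD, n = 3).

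**Figure D1:**
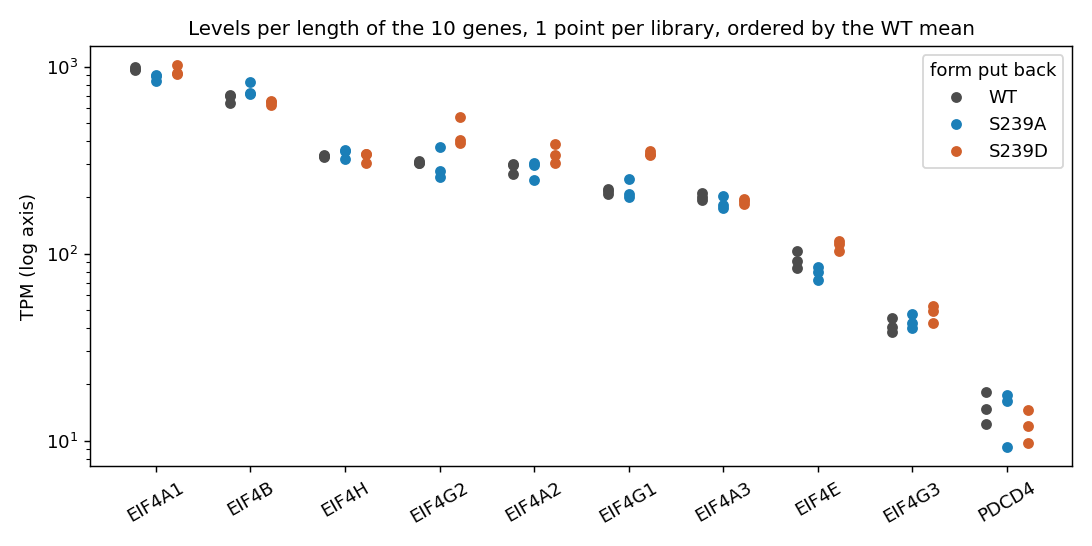
TPM (log axis) of the 10 genes in each of the 9 libraries, 1 point per library, grouped by the PDCD4 form put back and ordered by the WT mean. EIF4A1 is highest and PDCD4 lowest in all 3 groups, and the S239D points of EIF4G1 and EIF4G2 lie above those of WT.

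Of the 10 genes, 4 differed between S239D and WT by edgeR's quasi-likelihood test at an adjusted p of 0.05. EIF4G1 and EIF4G2 were higher in S239D, and PDCD4 and EIF4A1 were lower. Over all genes tested 41.4% passed in that comparison (19.7% higher and 21.7% lower), so 4 of 10 is near the background. The median log2 fold change of the 10 was -0.0031, beside 0.00075 for all genes. In counts scaled to library size, 8 of the 10 had S239D libraries that did not overlap those of WT, against 53.9% of all genes. The count of 4 depended on the libraries. It was 1 without WT replicate 1 (EIF4G1), 2 without WT replicate 2 (EIF4G1 and EIF4G2) or without WT replicate 3 (EIF4G1 and PDCD4), where 32.2%, 33.2% and 32.3% of all genes were called. It was 6 without S239A replicate 2, where 45.5% of all genes were. Without both libraries that stood apart, S239A replicate 2 and S239D replicate 2, it was 7, with EIF4A3, EIF4B and EIF4E added, and 51.6% of all genes were called.

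Between S239D and S239A 5 of the 10 passed, where 43.6% of all genes did (20.9% higher and 22.7% lower), which is also near the background. EIF4G1, EIF4G2 and EIF4E were higher in S239D, and PDCD4 and EIF4B were lower. Those 5 were also the genes whose S239D and S239A libraries did not overlap, against 49.8% of all genes. The median of the 10 was 0.0022 on the log2 scale, beside 0.0099 for all genes. Without both libraries that stood apart 6 passed, with EIF4H added, and 49.9% of all genes did. Between S239A and WT 0 of the 10 passed, where 0.00617% of all genes did. On log2(TPM + 1) with limma the share of called genes that were higher in S239D was 58.1% against WT and 59.3% against S239A, beside 47.6% and 48% here, and the median log2 difference of all genes was 0.081 and 0.092 in those fits, beside 0.00075 and 0.0099. Comparisons of S239D and of S239A with WT share the WT libraries.

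**Figure D2:**
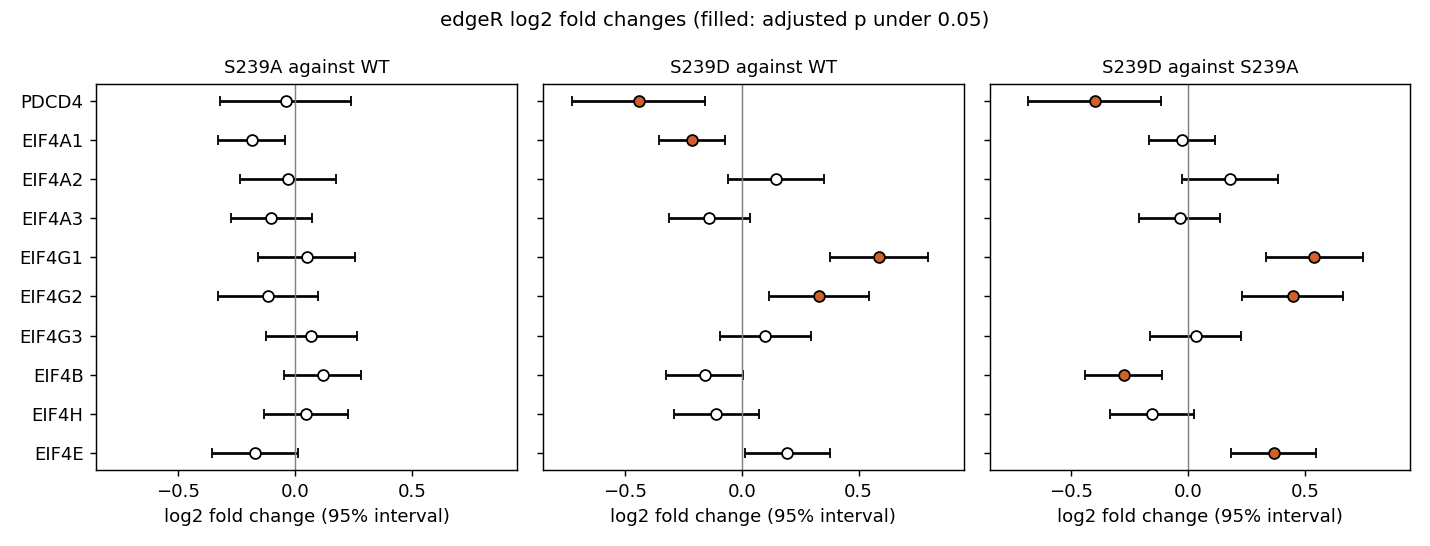
Log2 fold changes of the 10 genes from edgeR in the 3 comparisons, with 95% intervals; filled points have an adjusted p under 0.05. Filled points appear in both S239D comparisons (4 and 5 genes) and in none for S239A against WT.

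PDCD4, the inhibitor (chromosome 10, 110871795 to 110900006, plus strand), was read with few counts. WT libraries held 222, 142 and 180 counts, which is 24.1, 24.9 and 20.4 CPM. S239A libraries held 154, 188 and 244 counts, or 19, 23.1 and 25 CPM. S239D libraries held 137, 139 and 162 counts, or 16.8, 17.1 and 17 CPM. All 3 S239D libraries lay below all 6 others by CPM, and S239A spanned the WT range. The exact Poisson 95% interval of the lowest S239D count, 137, was 115 to 162, which covers counting error only.

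The S239D level was 0.737 times the WT level (log2 -0.44, 95% interval -0.73 to -0.16, edgeR adjusted p = 0.0164) and 0.758 times the S239A level (log2 -0.40, 95% interval -0.69 to -0.12, edgeR adjusted p = 0.0245). The first call did not hold when WT replicate 1 or 2 was left out (edgeR adjusted p = 0.0657 and 0.0627). The second did not hold when S239A replicate 3 or S239D replicate 1 or 3 was left out (edgeR adjusted p = 0.11, 0.0568 and 0.0651).

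Per length the separation was not seen. PDCD4 stood at 14.83, 18.09 and 12.23 TPM in WT, at 9.24, 17.51 and 16.28 TPM in S239A and at 9.71, 11.95 and 14.64 TPM in S239D. The groups overlapped, with the lowest value in S239A and S239D replicate 3 above WT replicate 3. On log2(TPM + 1), a scale that understates changes of low genes, limma gave a difference of -0.29 between S239D and WT (adjusted p = 0.41) and -0.20 between S239D and S239A (adjusted p = 0.585). The scales differ in how libraries are scaled and in the transcript length that RSEM assigned to a gene, and the median of all genes was 0.081 in the limma fit of S239D against WT. The log2 ratio of count to TPM, set to the median gene of the library, ran from -0.443 to 0.333 for PDCD4, with SDs within groups of 0.15, 0.35 and 0.28 for WT, S239A and S239D, and its mean differed by -0.024 between S239D and WT. For the other 9 genes such an SD was at most 0.19. GENCODE 29 lists 11 PDCD4 transcripts, from 531 to 3697 bases, and the share of each was not estimated here.

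**Figure D3:**
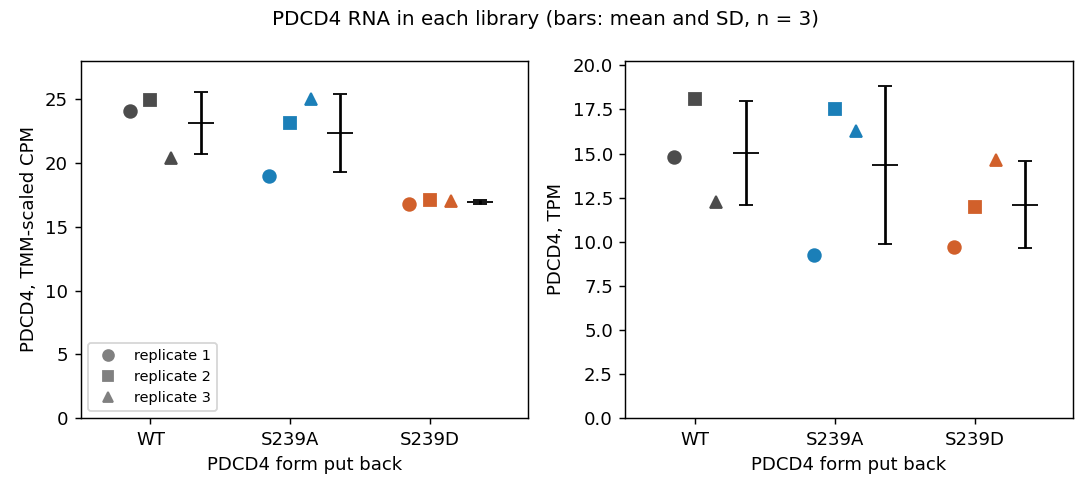
PDCD4 in each library as CPM (left) and as TPM (right), with the mean and SD of 3 libraries per form. The S239D points lie at 16.8 to 17.1 CPM, below all others, but overlap the other groups in TPM.

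The genes most like PDCD4 over the 9 libraries, by the root mean square difference of centred log2 CPM among 10998 tested genes with a mean of at least 10 CPM, were CYP2U1, CCDC25, HOOK1, PDCL and DHRS7, at differences of 0.086 to 0.091. CYP2U1, for example, stood at 27.5, 26.9 and 19.4 CPM in WT, S239A and S239D. Pearson's r of those 5 with PDCD4 was 0.92 to 0.94 over libraries that share their depth and group, given as a description.

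EIF4A1, the main helicase of the complex (chromosome 17, 7572706 to 7579006, plus strand), was lower with both variants than with WT by CPM. WT libraries stood at 905, 915 and 899 CPM. S239A libraries stood at 802, 818 and 773 CPM. S239D libraries stood at 791, 771 and 786 CPM. The WT libraries lay above all 6 others, and the variants overlapped. The difference from WT was -0.21 in S239D (SE 0.066, edgeR adjusted p = 0.0198) and -0.18 in S239A (SE 0.066, edgeR adjusted p = 0.379, unadjusted p = 0.0146), and that between S239D and S239A was -0.03 (95% interval -0.17 to 0.12, edgeR adjusted p = 0.769). Without both libraries that stood apart the S239A difference was -0.20 and passed (edgeR adjusted p = 0.0051). Those libraries were picked from these same data. Without them 5.29% of all genes passed between S239A and WT, beside 0.00617% with them.

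The S239D difference of EIF4A1 was small, and its call did not hold in TPM. In TPM, S239D libraries (911, 1019 and 919 TPM) overlapped WT (956, 968 and 999 TPM), while S239A libraries (893, 896 and 835 TPM) lay below WT. The S239D difference was -0.04 with limma on log2(TPM + 1), where the median of all genes was 0.081, and -0.10 with trends over GC content and length removed (adjusted p = 0.258), and the call did not hold with no filter on low counts (edgeR adjusted p = 0.0552) or when any 1 of the WT libraries or S239D replicate 3 was left out (edgeR adjusted p = 0.0616 to 0.0697). Between S239D and S239A it was 0.12 with limma on log2(TPM + 1), where the median of all genes was 0.092. Genes most like EIF4A1 were DAP, PDCD2, SLC35E3, VDAC1 and MTCH2, at differences of 0.031 to 0.049.

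EIF4A2 (chromosome 3, 186783205 to 186789897), a close paralog of EIF4A1 with the same helicase role, stood at 334 ± 16, 327 ± 37 and 371 ± 35 CPM in WT, S239A and S239D (SD, n = 3). It passed in no comparison (S239D against WT 0.15, 95% interval -0.06 to 0.35, edgeR adjusted p = 0.233). EIF4A3 (chromosome 17, 80134369 to 80147151), which is related in sequence but belongs to the exon junction complex deposited at splicing, stood at 129 ± 5, 120 ± 6.8 and 117 ± 5.5 CPM. Its difference between S239D and WT was -0.14 (95% interval -0.31 to 0.04, edgeR adjusted p = 0.19), and it passed only without both libraries that stood apart (-0.17, edgeR adjusted p = 0.0245).

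Within libraries the TPM of EIF4A1 over that of EIF4A2 was 3.18, 3.63 and 3.36 for WT, 2.93, 3.61 and 2.82 for S239A, and 3, 2.63 and 2.74 for S239D. All S239D values lay below all WT values, and S239A overlapped both. The means differed by -0.601 between S239D and WT, with an exact two-sided permutation p of 0.1, the smallest that 3 against 3 libraries can give, and 0.45 after Benjamini-Hochberg adjustment over 6 tests (2 ratios in 3 comparisons). For every 100 TPM of EIF4A1 and EIF4A2 together, WT libraries held 1.2 ± 0.26 TPM of PDCD4, S239A libraries 1.25 ± 0.41 and S239D libraries 0.939 ± 0.2 (SD, n = 3). The groups overlapped, with exact permutation p of 0.2 for S239D against WT and 0.4 against S239A (adjusted 0.45 and 0.48).

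**Figure D4:**
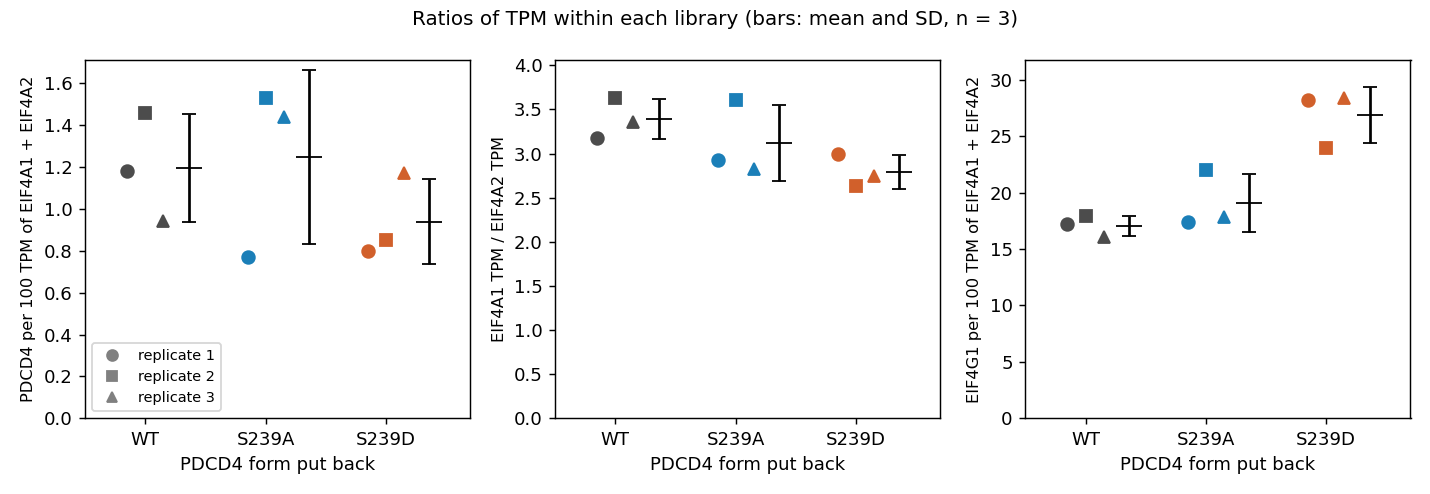
Ratios of TPM within each library: PDCD4 per 100 TPM of EIF4A1 and EIF4A2, EIF4A1 over EIF4A2, and EIF4G1 per 100 TPM of EIF4A1 and EIF4A2, with the mean and SD of 3 libraries. The S239D points of the last ratio (24 to 28.4) lie above those of WT (16.1 to 17.9) and S239A (17.4 to 22).

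The promoters of the 3 members that were called higher in S239D than in S239A, EIF4G1, EIF4G2 and EIF4E, are shown because they share that call. Against WT EIF4E did not pass (edgeR adjusted p = 0.0792). Each is the 250 bases before a RefSeq start (GRCh38.p14, all 10 members matched), the window nearest the start in the deposited table. Capitals mark matches, on either strand, to the E-box CACGTG, the CCAAT box CCAAT, the GC box GGGCGG, the ETS site CCGGAAG, the NRF1 site (GCGCA directly followed by TGCGC) and the CRE TGACGTCA. They are at chr3:184314356-184314605 on the plus strand, chr11:10808927-10809176 on the minus strand and chr4:98929134-98929383 on the minus strand.
EIF4G1: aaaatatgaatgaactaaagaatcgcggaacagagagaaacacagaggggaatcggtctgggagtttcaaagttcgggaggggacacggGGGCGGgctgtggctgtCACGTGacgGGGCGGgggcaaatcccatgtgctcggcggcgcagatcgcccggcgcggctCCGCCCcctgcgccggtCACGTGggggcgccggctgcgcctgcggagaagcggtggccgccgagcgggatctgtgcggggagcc
EIF4G2: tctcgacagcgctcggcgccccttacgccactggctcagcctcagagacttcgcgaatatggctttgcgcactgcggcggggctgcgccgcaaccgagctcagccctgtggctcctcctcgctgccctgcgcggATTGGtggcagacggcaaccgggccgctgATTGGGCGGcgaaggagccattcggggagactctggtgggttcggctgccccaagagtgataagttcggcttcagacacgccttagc
EIF4E: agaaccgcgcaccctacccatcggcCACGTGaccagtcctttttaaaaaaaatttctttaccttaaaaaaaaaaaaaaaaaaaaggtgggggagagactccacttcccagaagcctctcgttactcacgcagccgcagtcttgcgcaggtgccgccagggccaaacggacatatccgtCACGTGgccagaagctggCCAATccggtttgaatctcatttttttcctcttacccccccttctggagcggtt
The EIF4E window ends 1504 bases from the start in the deposited table, and those of EIF4G1 and EIF4G2 lie 111 and 14 bases from it. The E-box occurred in 6.34% of all 35116 RefSeq windows of that length and in 5 of the 10 members (EIF4A3, EIF4B, EIF4E, EIF4G1 and EIF4H). It occurred at least 2 times in 0.535% of windows, and in EIF4G1 and EIF4E among the members. EIF4G2 held no E-box, and EIF4A3, EIF4B and EIF4H held 1 each. The windows were not matched for GC content, which had a median of 58% over all windows. It was 62.4, 67.6, 50.4, 67.2 and 76.4% in EIF4A3, EIF4B, EIF4E, EIF4G1 and EIF4H. A link between these motifs and the RNA levels was not tested. The CCAAT box was found in 32% of windows and in 4 members, and in EIF4G2 a match to it overlaps a GC box. The GC box was found in 42.6% of windows and in 8 members. The ETS site (8.52% of windows) and the CRE (1.65%) were in no member window, and the NRF1 site (1.03%) was in that of PDCD4. These matches are descriptions of the letters and not binding sites.

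EIF4G1, the main scaffold that joins EIF4E to EIF4A (chromosome 3, 184314495 to 184335358, plus strand), rose most of the 10 in S239D. WT libraries stood at 722, 737 and 732 CPM. S239A libraries stood at 678, 875 and 716 CPM. S239D libraries stood at 1160, 983 and 1150 CPM. Every S239D library lay above every other, the lowest of them being replicate 2, and the S239A library above the WT range was also replicate 2. EIF4G1 was 1.5-fold higher in S239D than in WT (log2 0.59, SE 0.097, 95% interval 0.38 to 0.80, edgeR adjusted p = 0.00029) and 1.45-fold higher than in S239A (log2 0.54, SE 0.097, edgeR adjusted p = 0.000515). Both calls held under all 19 alternatives, at log2 0.55 to 0.68 against WT and 0.46 to 0.73 against S239A.

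The rise was of like size per length, from 215 ± 6.6 TPM in WT to 345 ± 9.4 TPM in S239D (SD, n = 3). Per 100 TPM of EIF4A1 and EIF4A2 together, EIF4G1 stood at 17.2, 17.9 and 16.1 in WT, at 17.4, 22 and 17.8 in S239A and at 28.2, 24 and 28.4 in S239D. That ratio was chosen after its values were seen and is given without a test.

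EIF4G2 (chromosome 11, 10797050 to 10808940, minus strand) is a scaffold relative that binds EIF4A but lacks the site for EIF4E and serves translation that does not start at the cap-bound complex. WT libraries stood at 782, 805 and 776 CPM. S239A libraries stood at 659, 868 and 654 CPM. S239D libraries stood at 935, 1050 and 982 CPM. The S239D libraries lay above all others, and within S239A replicate 2 stood well above the other libraries. EIF4G2 was 1.26-fold higher in S239D than in WT (log2 0.33, SE 0.10, edgeR adjusted p = 0.0166) and 1.36-fold higher than in S239A (log2 0.45, SE 0.10, edgeR adjusted p = 0.00261). Left out singly, WT replicates 1 and 3 each ended the call against WT (edgeR adjusted p = 0.0567 and 0.0603), while that against S239A held under all 19 alternatives. Without both libraries that stood apart EIF4G2 was lower in S239A than in WT (-0.26, edgeR adjusted p = 0.000957), against -0.12 with them (edgeR adjusted p = 0.755). S239A replicate 2, left out there, was the S239A library above the WT range. It was picked from these same data, so the call without it gives no support of its own.

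EIF4G3, a homologue of EIF4G1 (chromosome 1, 20806292 to 21176888, minus strand), stood at 134 ± 3, 141 ± 14 and 144 ± 11 CPM in WT, S239A and S239D (SD, n = 3). It passed in no comparison. Its difference between S239D and WT was 0.10 (95% interval -0.09 to 0.30, edgeR adjusted p = 0.389).

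EIF4E, the cap-binding subunit (chromosome 4, 98871684 to 98930637, minus strand), was highest in S239D and lowest in S239A. WT libraries stood at 84.7, 88 and 91.6 CPM. S239A libraries stood at 73.3, 82.8 and 78.7 CPM. S239D libraries stood at 101, 106 and 96 CPM. No library of any form overlapped those of another. EIF4E was 1.29-fold higher in S239D than in S239A (log2 0.37, SE 0.085, edgeR adjusted p = 0.00318), a call that held under all 19 alternatives. Its differences from WT were 0.20 in S239D (95% interval 0.01 to 0.38, edgeR adjusted p = 0.0792) and -0.17 in S239A (95% interval -0.35 to 0.01, edgeR adjusted p = 0.543). In TPM the S239A libraries (72.1, 84.71 and 79.97 TPM) and S239D libraries (116.3, 102.76 and 112.28 TPM) did not overlap, and each had a library within the WT range of 83.42 to 102.81 TPM.

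EIF4B, a cofactor that raises the activity of the helicase (chromosome 12, 53006158 to 53042209, plus strand), stood at 1080, 1100 and 1120 CPM in WT. S239A libraries stood at 1130, 1310 and 1150 CPM. S239D libraries stood at 1010, 933 and 1010 CPM. By CPM the groups did not overlap, with S239A highest and S239D lowest. In TPM the S239D libraries (625.79, 650.1 and 652.24 TPM) overlapped WT (642.01 to 704.9 TPM), and S239A (715.7 to 831.64 TPM) lay above both. EIF4B was lower in S239D than in S239A (log2 -0.28, SE 0.077, edgeR adjusted p = 0.00974). That call was lost with limma on log2(TPM + 1), where the adjusted p was 0.065. Differences from WT were -0.16 in S239D (edgeR adjusted p = 0.116) and 0.12 in S239A (edgeR adjusted p = 0.644). EIF4H, a smaller cofactor that shares a domain with EIF4B (chromosome 7, 74174245 to 74197101, plus strand), stood at 568 ± 9, 587 ± 41 and 527 ± 50 CPM (SD, n = 3). It passed in no comparison (S239D against S239A -0.16, 95% interval -0.34 to 0.03, edgeR adjusted p = 0.151), and its lowest library was S239D replicate 2 at 469 CPM.

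**Figure D5:**
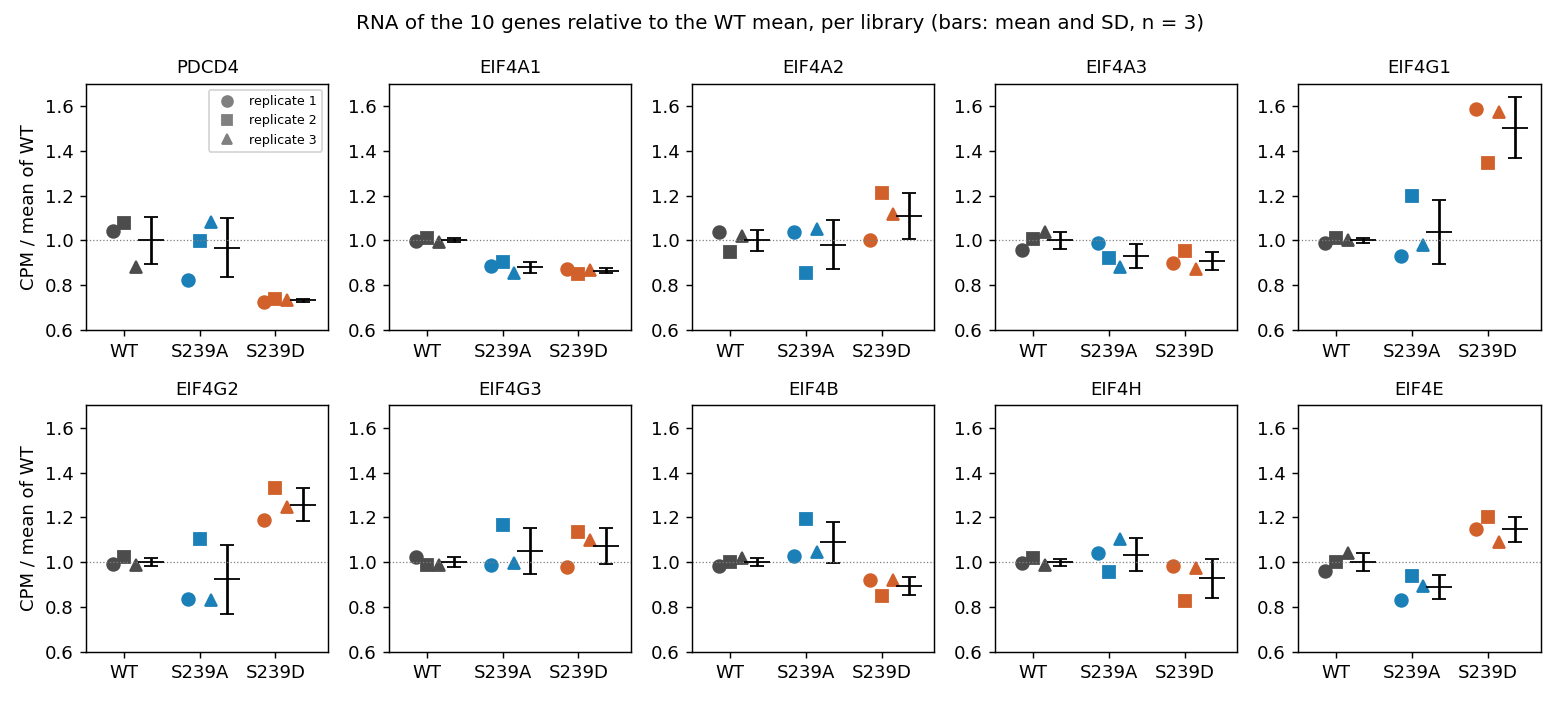
CPM of each of the 10 genes divided by its WT mean, 1 point per library with the replicate number as the symbol, and the mean and SD of 3 libraries beside them. EIF4G1 rises to about 1.5 times WT in S239D, and the S239A replicate 2 point stands above the others of its group for genes such as EIF4G1 and EIF4G2.

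Levels of neighbouring genes were set beside those of the members. EIF4A2 and EIF4G1 both lie on chromosome 3, where the median of 884 other tested genes was 0.22 on the log2 scale between S239D and WT. Within 5 Mb of EIF4G1 the median of 65 genes was 0.047, with 15 called higher and 14 lower, and within 5 Mb of EIF4A2 that of 54 genes was 0.016. Around EIF4B, on chromosome 12, the median of 223 genes was -0.18, with 29 called higher and 82 lower, against -0.16 for EIF4B itself. Near PDCD4 the median of 26 genes was 0.016, near EIF4G2 that of 66 genes was -0.05 and near EIF4E that of 27 genes was -0.10. The part of such regional shifts in the values of the members was not tested.

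Between S239A and WT the 10 genes moved little by the test. EIF4A1 alone had an unadjusted p under 0.05, and 9.76% of all genes did. EIF4A1 and EIF4E were lower and EIF4B higher in S239A without overlap of libraries, which is 3 of 10 where 19.5% of all genes did not overlap. The intervals of the 10 log2 differences ran from -0.35 at the lowest to 0.28 at the highest. Without both libraries that stood apart, EIF4A1 and EIF4G2 passed, both lower in S239A, in a fit where 5.29% of all genes did.

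Regulators of the cap-binding step were taken as a list of 10 genes, the EIF4E homologues, the EIF4E-binding repressors and the kinases of EIF4E. Between S239D and WT 2 of the 10 fell and 0 rose, fewer called than the 41.4% of all genes, with a median of -0.11 beside 0.00075 for all genes. EIF4EBP1, a repressor that holds EIF4E away from the scaffold, stood at 57.4, 59.4 and 58.5 CPM in WT, at 65.7, 50.9 and 69.3 in S239A and at 44.1, 27.5 and 40.4 in S239D. All S239D libraries lay below all others (log2 -0.64 against WT, edgeR adjusted p = 0.00418, and -0.73 against S239A, edgeR adjusted p = 0.00158). MKNK2, a kinase that phosphorylates EIF4E, fell from 338 ± 11 CPM in WT to 243 ± 36 CPM in S239D (SD, n = 3, log2 -0.48, edgeR adjusted p = 0.0017). The other repressors did not pass, with EIF4EBP2 at 0.02 (edgeR adjusted p = 0.882) and EIF4EBP3 at 0.61 (edgeR adjusted p = 0.167). The same 2 genes passed against S239A. With limma on log2(TPM + 1) EIF4EBP1 passed and MKNK2 did not.

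Of 9 tested genes for poly(A)-binding proteins, their regulators and other initiation helicases, 2 rose and 3 fell between S239D and WT, near the 19.7% and 21.7% of all genes, with a median of 0.02 beside 0.00075. PABPC1, which binds the poly(A) tail and the EIF4G scaffold, fell from 1780 ± 67 to 1380 ± 100 CPM (log2 -0.36, edgeR adjusted p = 0.0174). Its repressors PAIP2 (-0.37, edgeR adjusted p = 0.00354) and PAIP2B (-0.49, edgeR adjusted p = 0.00356) fell too. The helicase gene DDX3X (0.41, edgeR adjusted p = 0.00439) and LARP1, a binder of caps of ribosomal protein messages (0.28, edgeR adjusted p = 0.0118), rose. On log2(TPM + 1) with limma the falls numbered 1 in place of 3. Against S239A 2 rose and 3 fell.

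Of 16 genes whose proteins act on PDCD4 protein, 5 rose and 3 fell between S239D and WT, near the background of 41.4% called, with a median of -0.01 beside 0.00075. MTOR, the kinase upstream of the S6 kinases, rose from 84.2 ± 2.5 to 119 ± 7.2 CPM (log2 0.50, edgeR adjusted p = 0.000779). RPTOR, its partner (0.44, edgeR adjusted p = 0.0189), the kinases RPS6KA3 (0.43, edgeR adjusted p = 0.0147) and AKT2 (0.36, edgeR adjusted p = 0.0319), and BTRC, the subunit of the ubiquitin ligase that recognises phosphorylated PDCD4 (0.40, edgeR adjusted p = 0.0207), also rose. RPS6KA1, a kinase related to RPS6KA3 (-0.40, edgeR adjusted p = 0.00356), and SKP1, another subunit of that ligase (-0.42, edgeR adjusted p = 0.0025), were among those that fell. PLK1 stood at 98.9 ± 0.69 and 92.6 ± 4.4 CPM in WT and S239D (log2 -0.09, edgeR adjusted p = 0.378). The 5 rises numbered 2 without WT replicate 1 or 2 and 3 without S239D replicate 2, without WT replicate 3 or with limma on log2(TPM + 1), and limma called 1 of the 3 falls. Against S239A 4 rose and 2 fell.

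Of 9 tested genes that PDCD4 is known to hold down, mostly at translation, 4 were called lower and 0 higher between S239D and WT, where 41.4% of all genes were called (21.7% lower). The median was -0.26 beside 0.00075 for all genes. MYB, a transcription factor, stood at 11.8, 8.25 and 10.5 CPM with WT, at 7.16, 10.6 and 7.99 with S239A, and at 3.92, 4.81 and 3.57 with S239D, below every other library (log2 -1.33, edgeR adjusted p = 0.000258). SNAI1 (-1.68, edgeR adjusted p = 0.00621) and MAP4K1 (-2.28, edgeR adjusted p = 0.00762) had only 7, 3 and 6 and 4, 4 and 2 counts in the S239D libraries. Both passed the filter on low counts through the groups where they were higher, so only a fall could be called for them, and the list's count and median give no support of their own. With a filter of 1 CPM in 6 libraries 8 genes of the list were tested and 3 were called lower. CDK4, a cell cycle kinase, fell by 0.24 on the log2 scale (edgeR adjusted p = 0.0236). The count was 2 without WT replicate 3 and with limma on log2(TPM + 1). Against S239A 2 fell and 0 rose.

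Genes whose messages are known for translation that depends on EIF4A moved both ways. Of 11, 4 rose and 4 fell between S239D and WT, where 19.7% and 21.7% of all genes did, with a median of 0.04 beside 0.00075. MCL1, a survival factor, rose from 445 ± 7.2 to 651 ± 7.8 CPM (log2 0.55, edgeR adjusted p = 2.85e-05), and MDM2 (0.55, edgeR adjusted p = 0.00211), NOTCH1 (0.47, edgeR adjusted p = 0.000696) and CCND1 (0.28, edgeR adjusted p = 0.0153) rose as well. BIRC5, an inhibitor of apoptosis, fell from 99.6 ± 2.5 to 56.9 ± 7.2 CPM (log2 -0.81, edgeR adjusted p = 2.27e-05), and CCND3 (-0.89, edgeR adjusted p = 8.2e-05), CDK6 (-0.64, edgeR adjusted p = 0.00296) and MYC (-0.44, edgeR adjusted p = 0.000387) fell. Against S239A 4 rose and 3 fell. In these 5 lists 0 genes passed between S239A and WT by edgeR, while 9 had an unadjusted p under 0.05. Of those 9, 5 were among the 11 of the EIF4A-dependent list. Of all genes 0.00617% passed and 9.76% had an unadjusted p under 0.05. DESeq2 called 0, where 0.401% of all genes passed. With no filter edgeR called 1, CDK6 of the EIF4A-dependent list, higher in S239A, where 0.494% of all genes passed.

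Without both libraries that stood apart, the counts of called genes between S239D and WT were 1 higher and 2 lower for the regulators of the cap step, 2 and 3 for the poly(A) list, 6 and 4 for the genes acting on PDCD4, 0 and 4 for the genes it holds down, and 5 and 4 for the EIF4A-dependent list. In that comparison 51.6% of all genes were called, and the lists named 10, 10, 16, 10 and 11 genes in the same order. Between S239A and WT the same fit called 5.29% of all genes. Among them were 0 higher and 4 lower of the EIF4A-dependent list (BIRC5, MDM2, MYC and ODC1), 2 lower of the genes acting on PDCD4 (PRMT5 and SKP1) and 2 lower of the poly(A) list (DDX3X and DHX9).

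Copies of the members add few reads. Of 35 pseudogenes named after members, 20 were at 0 in every library, the highest mean was 4.19 CPM (EIF4BP6), and their summed level was 8.24 to 13 CPM per library. The read-through SENP3-EIF4A1 had group means of at most 1.06 CPM, and PDCD4-AS1 of at most 0.233 CPM. How reads shared between EIF4A1, EIF4A2 and such copies were divided follows RSEM's estimate and was not checked here.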

How the data were processed

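RNA of 9 libraries of 22Rv1 cells was measured by sequencing. The authors deposited expected counts per gene, not normalized between libraries, and TPM, scaled within each library. Per the submitters' processing notes, reads were handled with Trimmomatic 0.39 and RSEM. Aligner, genome build, annotation and strandedness: not given in the sources used here. All 10 members overlapped the GENCODE 29 (GRCh38) gene of the same identifier.

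Expected counts (3.81% of values not whole) were rounded, scaled by TMM, filtered with filterByExpr and fitted in edgeR 4.0.16 under R 4.3.3, all libraries at once. Quasi-likelihood F tests, two-sided, were adjusted over 16213 genes by Benjamini-Hochberg, with a threshold of 0.05. CPM are TMM-scaled. Ratios of TPM were compared by exact two-sided permutation tests. On simulated data for S239D against WT (15922 genes) 44.8% of genes changed 1.5-fold and 82.1% of those changed 2-fold were recovered, with 2 false calls of 152. The simulation changed 67, 67 and 66 genes by 1.5, 2 and 4-fold, gave every gene the same dispersion and had no library that stood apart. In the data 41.4% of genes were called and 2 libraries stood apart, so these rates need not hold there.

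Groups followed the genotype labels. Named genes are the 10 members, PLK1, the called members of the other lists with the smallest adjusted p first, copies of members, and the 5 genes most like PDCD4 and EIF4A1. Genes named beyond these were chosen after their values were seen. The members and lists were chosen with earlier results of these data known. Of the lists' genes, CA2 and PABPC3 did not pass the filter, and some are not reported here.

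Alternatives comprised DESeq2 1.42.0, RLE scaling, limma 3.58.1 on log2(TPM + 1) and log2(TPM + 0.1) where 3 libraries or more reached 1 TPM, no filter, 1 CPM in 6 libraries, only the groups compared, the replicate number as a block, each library left out, and both variants' second libraries left out. Removing trends over GC content and length, and the counts of other lists under each setting, were added after seeing the data. The variants' second libraries were picked for leaving out because they stood apart in these same data. Calls gained in that fit therefore give no support of their own.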

Additional observations from a re-analysis of the deposited data

How the results depend on the processing

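Under 19 alternatives EIF4G1 kept its call in both S239D comparisons, and EIF4G2 and EIF4E kept theirs against S239A. PDCD4 between S239D and WT lost its call with limma on log2(TPM + 1) (-0.29) and log2(TPM + 0.1) (-0.31), and with libraries left out in turn the log2 value ran from -0.53 to -0.39. PDCD4 between S239D and S239A lost it with limma too (-0.20 and -0.21), with a leave-one-out range of -0.50 to -0.31. The uncalled PDCD4 difference between S239A and WT ran from -0.13 to 0.06 with libraries left out in turn, turning positive without WT replicate 2 (0.01) and without S239A replicate 1 (0.063), and was 0.029 with GC and length trends removed. The count of members called between S239D and WT was 2 with limma at both pseudocounts, 7 without both second libraries of the variants and 1 to 6 with libraries left out in turn. Between S239A and WT it was 2 without both second libraries. Between S239D and S239A it was 3 with limma at both pseudocounts, and 4 to 6 with libraries left out in turn.

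Uncalled differences changed sign as follows. Without S239A replicate 2 and without both second libraries, S239A minus WT was 0.059 and 0.057 for EIF4A2, -0.068 and -0.068 for EIF4G1, and -0.015 and -0.016 for EIF4G3, with libraries left out in turn giving -0.083 to 0.059, -0.068 to 0.12 and -0.015 to 0.11. EIF4G1 was at -0.054 with GC and length trends removed, and EIF4H at -0.00041 without S239A replicate 3 (up to 0.099 with other libraries left out). S239D minus S239A was 0.12 with limma at both pseudocounts for EIF4A1, 0.0055 without both second libraries and 0.03 with the trends removed. For EIF4A3 it was 0.026 with limma at both pseudocounts, 0.0065 without S239A replicate 1 (down to -0.074 with others left out) and 0.0055 with the trends removed. For EIF4G3 it was -0.012 and -0.0085 without S239A replicate 1 and 3, and -0.0072 without S239D replicate 2. In the fits of S239D against S239A the median of all genes was itself higher, by 0.082 and 0.09 with limma and by 0.064 with the trends removed. EIF4A3 under each of them, and EIF4A1 with the trends removed, moved by less than that shift, and EIF4A1 under limma by more. The cause of these sign changes, those of EIF4A1 and EIF4A3 included, was not tested. Of genes in the other lists, CDK4 lost its call between S239D and WT under 7 of 19 alternatives, AKT2, RPS6KA3 and PABPC1 each under 5, and BTRC under 4.

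The labels' replicate numbers did not pair the samples. Over 9 pairs with the same number the correlation of deviations was -0.022 to 0.22, over 0.1 in 2 pairs, and 1 of 9 libraries correlated best with its own number. With the replicate number as a block, 4, 0 and 5 members were called in S239D against WT, S239A against WT and S239D against S239A, as without it, and 7275, 6 and 7610 genes in all against 6708, 1 and 7064. PDCD4, at 137 to 244 counts per library, is the member whose precision depth limits most.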
